A study of Mus musculus with 10 samples.

Results

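Chromosome 1 of the mouse was examined peak by peak and in fixed windows of 1 Mb, to ask where along it chromatin accessibility differed between naive CD4 T cells of mice with an induced deletion of Satb1 (KO) and of untreated mice (WT). Of the 61571 nuclear peaks in the deposited annotation, 3933 lie on chromosome 1. The 2116 of these whose counts summed to at least 100 over the 10 libraries (53.8% of the chromosome's peaks) were kept as members, and the other 1817 were not. Members were chosen by their count summed over all libraries, so the total count of a member is not a result. Members annotated to Cnnm4, 2010300C02Rik and Tns1 lay just inside with a summed count of 100, and peaks annotated to Neurl3, Mgat4a and Npas2 lay just outside with 99. Members lay between positions 4785447 and 195176876 (mm10), had a median width of 279 bases and a median summed count of 246. The test used here could be run on 2092 members. The other 24 had too few counts per library.

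ATAC-seq uses a transposase that cuts and tags DNA where it is not covered by nucleosomes, so that the number of reads in a peak measures how open that site is. SATB1 is a nuclear protein that binds AT-rich DNA and organises chromatin in loops, and it is abundant in thymocytes and T cells. Mouse chromosome 1 carries several families of immune genes in clusters, among them the IL-1 receptor family, the CD28 family, the SLAM receptors and the interferon-inducible p200 genes. A change that spreads over a domain would move neighbouring peaks together, whereas a change at single elements would not. The peaks were therefore compared singly, in windows and by their distance to each other.

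The KO group had 5 libraries from mice of the genotype Satb1 fl/fl x CD4-CreERT2 wt/+ that had been given tamoxifen, and the WT group had 5 libraries from untreated mice of the same genotype. Both groups carry the floxed alleles and the CD4-CreERT2 recombinase, which acts in CD4-expressing cells once tamoxifen is present. Deletion of Satb1 and exposure to tamoxifen therefore cannot be told apart. All libraries came from 60000 sorted naive cells of spleen and lymph node (CD3+, CD4+, CD25-, CD44 low or negative, besides another surface marker). Nothing in the labels tells if libraries stem from different animals, and p-values then measure only the spread between these libraries, which may be technical. They give no batch, sex, age or number that pairs a KO with a WT library.

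Counts in peaks totalled 673398 to 2184717 per library, and a member held a median of 10 to 36 counts in a library. Pairs of libraries of the same group differed little beyond counting noise, and in 8 of the 20 pairs no difference beyond it was found. All 10 libraries were kept as separate samples, and where merging such libraries to 3 KO and 2 WT samples ended the call of a named peak or window, the merged value stands beside it. The 26 peaks annotated to the targeted gene Satb1 on chromosome 17 summed to 428 ± 12 CPM (counts scaled to a common library total) in the KO group and 373 ± 15.6 CPM in the WT group (mean ± SD, n = 5 libraries each, as in all such values here). Of the 16 tested, 4 were called higher in KO, beside 2.94% of all tested peaks of the genome. The summed level separated the groups (two-sided exact permutation test, p = 0.00794), but accessibility of the gene does not check the deletion. The 8 defining T cell markers all had peaks. The 7 peaks of Cd4 summed to 86.7 ± 3.4 CPM in KO libraries and 91.7 ± 8.04 CPM in WT libraries, which is not a level per peak. Of the marker lists of other cells, peaks were annotated to 3 of 4 CD8 T cell, 4 of 8 B cell, 5 of 7 myeloid, 1 of 4 NK, 2 of 4 erythroid and all 4 stromal genes, at 6.58 to 17.2 CPM per peak, against 17.7 CPM for the T cell list. Called higher in KO were 4 of the 89 tested peaks of the T cell list and 1 of 7 of the NK list. Called lower was 1 of the 4 tested peaks of the erythroid list. Of all tested peaks of the genome, 2.94% were called higher and 0.911% lower. No peak was annotated to Ms4a1, Pax5, Ebf1, Lyz2, Csf1r, Gzmk, Ncr1, Klra8, Nkg7, Hba-a1 or Hbb-bt. For each of the 7 marker lists the summed level of KO and WT libraries overlapped (p from 0.183 to 0.77, two-sided exact permutation test), and the part of other cells in the results was not tested. In bulk libraries, fewer cells with an open site and a less open site per cell cannot be told apart.

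Called peaks covered the start site of few genes, and few tested members of the promoter class were called (2.47% higher and 0.449% lower). Of 652 RefSeq promoters (250 bases before to 50 after the start, GRCm38.p6) that a member overlapped, 5 were overlapped by a member called higher in KO and none by a member called lower. The 5 belong to Neurl3, Pecr, Tmem169, Fam124b and 1810006J02Rik, and 1 peak spans the start sites of both Pecr and Tmem169. The promoters of Neurl3, Pecr and Fam124b are shown, 1 for each of 3 called peaks and for the gene that peak is annotated to, so that the covered bases can be seen. They are written 5′ to 3′ on the gene's strand, with the bases inside the called peak in capitals. Neurl3 is at chr1:36273376-36273675, Pecr at chr1:72284272-72284571 and Fam124b at chr1:80213895-80214194, all on the minus strand.
Neurl3: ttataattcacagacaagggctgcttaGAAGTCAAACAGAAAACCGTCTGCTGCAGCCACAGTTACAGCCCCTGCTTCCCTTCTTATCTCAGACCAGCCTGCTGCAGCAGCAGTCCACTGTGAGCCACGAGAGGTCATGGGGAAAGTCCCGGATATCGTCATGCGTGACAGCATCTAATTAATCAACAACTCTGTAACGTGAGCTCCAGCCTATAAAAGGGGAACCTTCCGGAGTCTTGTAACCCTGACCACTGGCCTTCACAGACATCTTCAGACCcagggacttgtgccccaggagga
Pecr: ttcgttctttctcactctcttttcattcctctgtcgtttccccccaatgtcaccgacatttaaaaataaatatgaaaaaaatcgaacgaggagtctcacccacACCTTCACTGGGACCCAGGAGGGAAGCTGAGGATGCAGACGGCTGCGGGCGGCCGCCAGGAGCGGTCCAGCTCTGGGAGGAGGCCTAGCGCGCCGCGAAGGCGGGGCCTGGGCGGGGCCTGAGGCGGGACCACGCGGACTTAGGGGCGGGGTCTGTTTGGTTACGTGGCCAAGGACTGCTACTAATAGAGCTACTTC
Fam124b: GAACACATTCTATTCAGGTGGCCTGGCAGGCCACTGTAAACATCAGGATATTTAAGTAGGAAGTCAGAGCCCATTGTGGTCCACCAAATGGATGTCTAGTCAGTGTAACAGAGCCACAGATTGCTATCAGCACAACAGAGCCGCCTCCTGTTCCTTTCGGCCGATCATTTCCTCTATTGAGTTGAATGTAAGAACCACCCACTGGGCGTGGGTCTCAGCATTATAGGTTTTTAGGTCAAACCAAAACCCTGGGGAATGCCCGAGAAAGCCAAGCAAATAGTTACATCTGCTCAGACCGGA
The Fam124b promoter is 52% A+T and contains TGTGGT, the core that RUNX factors bind, and GTAAACA, a forkhead (FOX) sequence, on either strand. These letters occur in 16.8% and 3.65% of all 32851 promoters of this length, and neither occurs in the other 2 sequences shown. A match of letters is a description of the sequence and not a binding site.

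Of the 2092 tested members 89 (4.25%) were called higher in KO, where 2.94% of all tested peaks of the genome were, and 14 (0.669%) were called lower, where 0.911% were. A peak is called at an adjusted p under 0.05 in the quasi-likelihood test of edgeR, with Benjamini-Hochberg adjustment over all 34910 tested peaks. Among peaks with a summed count of at least 100, as in members, the share called higher was 2.83% over the other chromosomes. By this minimum chromosome 1 had the highest share of the 21 chromosomes. The chromosome was chosen with results of these data known, so this rank is a description, and the difference from the other chromosomes was not tested. Over all tested members, 1061 lay above and 1031 below a log2 fold change of 0 (KO over WT), with a median of 0.002. At an unadjusted p under 0.05, 206 members were higher and 119 lower.

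**Figure D1:**
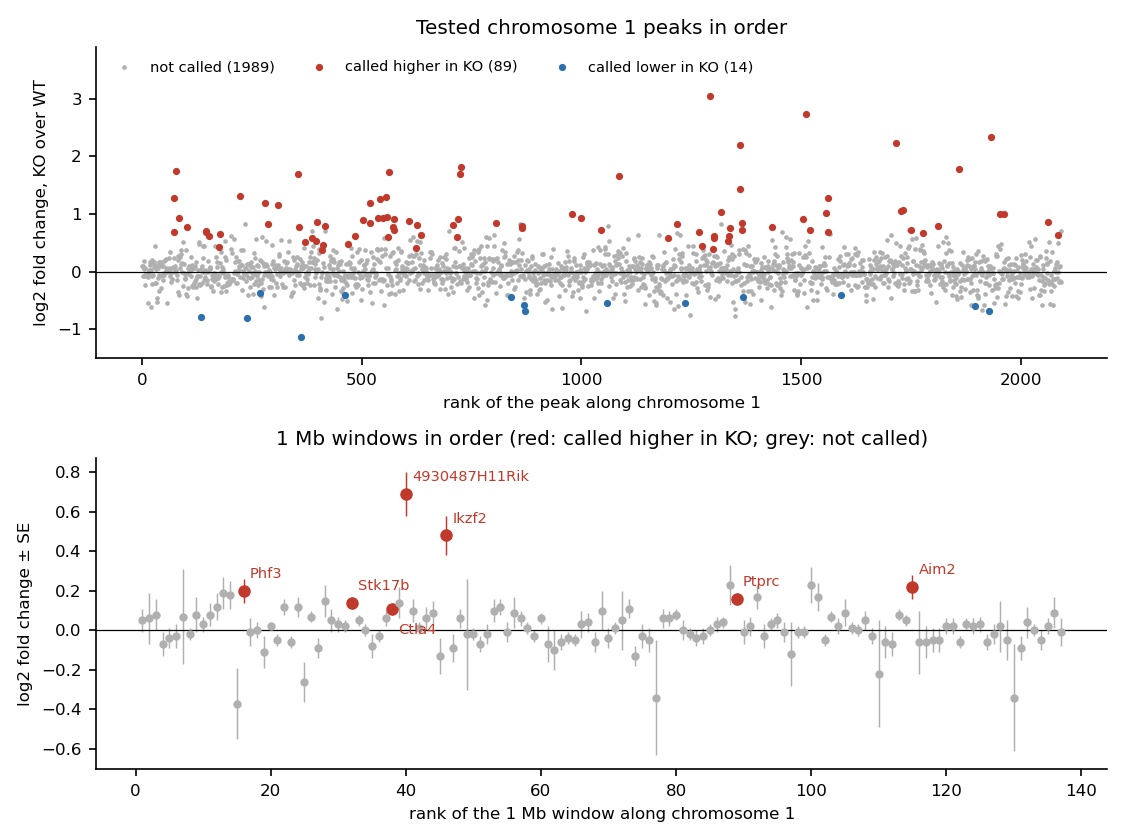
Log2 fold change (KO over WT) of the 2092 tested chromosome 1 peaks by rank along the chromosome (upper panel), and of the 137 windows of 1 Mb with their SE (lower panel). Red points are called higher in KO, blue points lower and grey points not called. Called peaks lie among uncalled ones in all 4 sections of 50 Mb, with stretches of 18 and of 9 windows that have none. The 7 called windows, labelled by a gene, do not adjoin each other.

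Among called members the changes upwards reached further than those downwards. The minimum count sums both groups, so a peak with few WT counts could be kept through its KO counts. Large folds can therefore rest on WT values of few reads, as at Ptprc (3.31 CPM in WT) and Fbxo28 (3.22 CPM in WT). The difference in reach between the directions was not tested. The 89 higher members had a median fold of 1.77 (1.29 to 8.26), and their median level was 22.8 CPM in KO libraries and 11.6 CPM in WT libraries. In the 14 lower members the median fold was 0.677 (0.455 to 0.772), with a median level of 25.5 CPM in KO libraries and 34.6 CPM in WT libraries. By the fitted fold, at least 2-fold changes were called in 26 members upwards and in 1 downwards. The lowest KO library exceeded the highest WT library in 73 of the 2092 tested members (3.49%, beside 2.78% of all tested peaks of the genome), and the highest KO library was below the lowest WT library in 21 (1%, beside 1.19%). Of the called members, which the same counts chose, 57 of the 89 higher and 2 of the 14 lower were separated so. DESeq2 called 44 members higher and 1 lower. Thinning every library to the smallest total left 19 higher and 1 lower. Peaks left with too few counts by thinning were not tested in that setting, so their calls neither held nor ended there.

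The higher members with the smallest adjusted p are described next, 1 per gene and without Gm, LOC or Rik names, beginning with those annotated to genes of surface receptors and ligands. Tnfsf18 encodes the ligand of the costimulatory receptor GITR. An intergenic peak of Tnfsf18 (161479803 to 161480355) had 48, 35.5, 56.7, 53.7 and 44.4 CPM in the KO libraries, against 6.52, 6.07, 10.4, 7.15 and 4.05 CPM in the WT libraries. The lowest KO library was above the highest WT library, and the peak rose 6.67-fold (log2 fold change 2.74 ± 0.18 SE, edgeR adjusted p = 7.89e-22). Ptprc encodes the receptor phosphatase CD45, which sets the activity of Src-family kinases. Its intergenic peak (138185918 to 138186255) had 24, 37.5, 36.7, 28.2 and 23.5 CPM in KO, against 2.17, 2.76, 3.13, 7.15 and 1.35 CPM in WT. The groups did not overlap, and the peak rose 8.26-fold (log2 fold change 3.05 ± 0.25 SE, edgeR adjusted p = 2.24e-16). Cxcr4 encodes the receptor of the chemokine CXCL12. An intergenic peak annotated to Cxcr4 (128705077 to 128705587) had 36, 30.2, 36.7, 41.5 and 28.9 CPM in KO, against 10.9, 12.7, 7.84, 11.4 and 12.2 CPM in WT. KO libraries lay within 28.9 to 41.5 CPM and WT libraries within 7.84 to 12.7 CPM, a 3.16-fold rise (1.66 ± 0.17 SE on the log2 scale, edgeR adjusted p = 2.15e-12).

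Slamf7, a SLAM receptor, had an intergenic peak (171661482 to 171661765) at 18.9 ± 4.4 CPM in KO libraries and 4.03 ± 1.56 CPM in WT libraries, a 4.72-fold rise (edgeR adjusted p = 2.48e-10). Ctla4 encodes the inhibitory receptor that competes with CD28. Its peak with the smallest adjusted p (60898569 to 60899098) had 32, 29.2, 26.7, 34 and 28.4 CPM in KO, against 12, 15.5, 12, 9.29 and 12.8 CPM in WT. This was a 2.44-fold rise with no overlap of the groups (1.29 ± 0.16 SE on the log2 scale, edgeR adjusted p = 5.64e-09).

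Nck2 is an adaptor that links receptors to the actin cytoskeleton. Its intronic peak (43542352 to 43542646) had 36.8, 35.5, 38.3, 43.6 and 35.9 CPM in KO, against 15.2, 18.8, 16.7, 17.9 and 16.9 CPM in WT, a 2.22-fold rise (edgeR adjusted p = 1.43e-09). The spread within each group was small beside the difference. Dock10, a guanine nucleotide exchange factor, had an intronic peak at 17.6 ± 4.4 CPM in KO libraries and 4.81 ± 2.21 CPM in WT libraries (3.54-fold). Fbxo28 belongs to the F-box proteins that choose substrates of a ubiquitin ligase, and an intergenic peak annotated to it had 15.9 ± 3.73 CPM in KO libraries and 3.22 ± 1.31 CPM in WT libraries (5.02-fold). Nab1 is a corepressor of EGR factors. An intergenic peak annotated to Nab1 had 18.2 ± 2.62 CPM in KO libraries and 5.22 ± 1.67 CPM in WT libraries (3.25-fold). The edgeR adjusted p of these 3 was 5.04e-08, 4.65e-10 and 8.89e-08 in that order, and their KO libraries were all above their WT libraries.

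A peak annotated to Rev1, a DNA polymerase that copies past damage, lies -265484 bases from its start site (negative means upstream) and in intron 5 of another gene, Aff3 by RefSeq name, whose product takes part in transcription elongation. It had 26.4 ± 5.45 CPM in KO libraries and 11.5 ± 1.54 CPM in WT libraries, a 2.5-fold rise (edgeR adjusted p = 2.02e-08). Among the named higher members this was the call that ended with thinning to the smallest total (adjusted p = 0.11). No other alternative, and no removal of 1 library, ended a call among them. The Slamf7, Dock10, Fbxo28, Nab1 and Smap1 peaks, however, had too few counts to be tested after thinning. Smap1 encodes a protein that switches off Arf GTPases. Its intronic peak had 13.6, 26.1, 1.67, 21.3 and 20 CPM in KO, against 6.52, 7.18, 5.22, 4.29 and 4.05 CPM in WT (3.33-fold, edgeR adjusted p = 6.94e-07). The KO library with 1.67 CPM, Sample_2270_KO, was the shallowest of the study and lay below all WT libraries, so the groups overlapped.

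**Figure D2:**
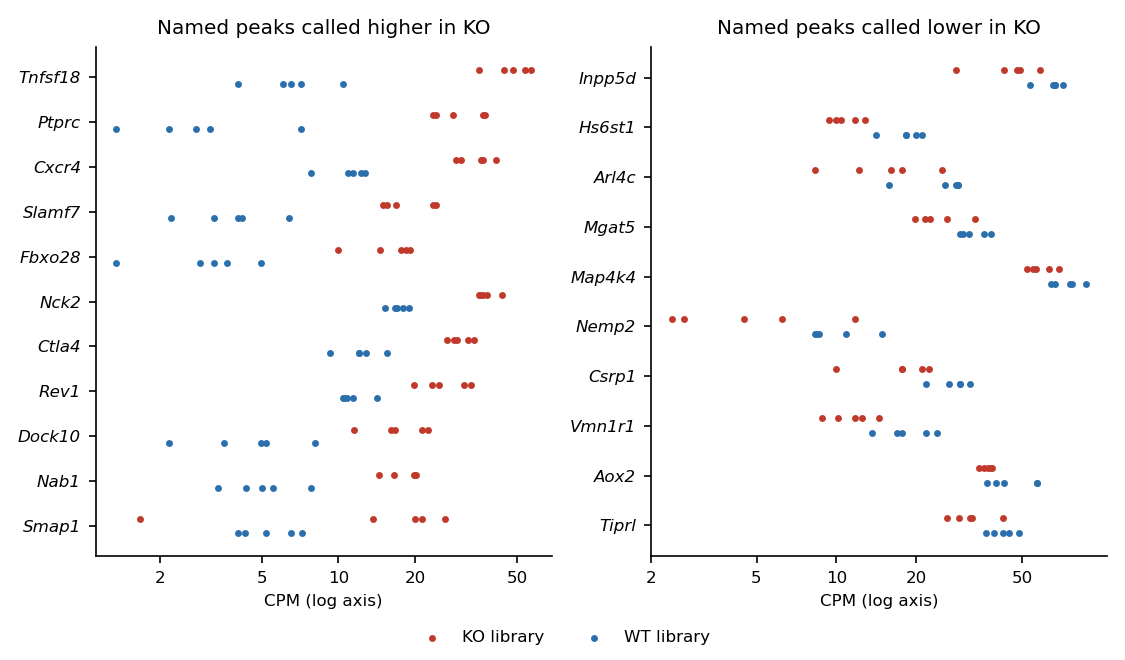
CPM of each library (log axis) in named members called higher in KO (left) and lower (right), 5 KO and 5 WT libraries each, KO drawn above WT. The Tnfsf18, Ptprc and Cxcr4 peaks show a gap between the groups, whereas among the lower members KO and WT points overlap in all but Hs6st1.

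Members called lower in KO lay between 0.455-fold and 0.772-fold. Inpp5d encodes SHIP-1, a phosphatase that dampens signalling through PI3 kinase. Its intronic peak (87636923 to 87637472) had 58.4, 42.8, 28.3, 48.9 and 47.9 CPM in KO, against 65.2, 66.2, 71, 66.5 and 53.4 CPM in WT. A single KO library lay above the lowest WT library, and the peak fell to 0.735-fold (log2 fold change -0.44 ± 0.11 SE, edgeR adjusted p = 0.00356). Hs6st1 encodes an enzyme that sulfates heparan sulfate. Its peak, in the class promoter and 1103 bases downstream of the start site (36069503 to 36069711), had 10.4, 9.39, 11.7, 12.8 and 9.98 CPM in KO, against 14.1, 18.2, 20.9, 20 and 18.2 CPM in WT. Here the groups did not overlap (0.584-fold, edgeR adjusted p = 0.00649). The other lower member with separated groups, outside the naming rule and picked after its values were seen, is an intergenic peak whose gene number belongs to Mir6349 in RefSeq. Csrp1, a LIM-domain protein, had a peak upstream of its start site at 17.7 ± 4.78 CPM in KO libraries and 27.7 ± 3.82 CPM in WT libraries (0.682-fold, edgeR adjusted p = 0.0184), and the highest KO library lay just above the lowest WT library. Nemp2, a protein of the nuclear envelope, had the 1 called loss of over 2-fold by the fitted fold (0.455-fold, edgeR adjusted p = 0.0136). Its means, 5.5 ± 3.79 CPM in KO libraries and 10.2 ± 2.82 CPM in WT libraries, lie less than 2-fold apart. The groups overlapped, and Sample_2270_KO, with 11.7 CPM, lay above all WT libraries but Sample_2277_WT (14.9 CPM).

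The remaining named lower members were called at edgeR adjusted p from 0.00787 to 0.0374. They lie near Arl4c, a small GTPase (0.619-fold), Mgat5, an enzyme that branches N-glycans (0.688-fold), Map4k4, a kinase (0.772-fold), the vomeronasal receptor gene Vmn1r1 (0.619-fold), the aldehyde oxidase gene Aox2 (0.758-fold) and Tiprl, a regulator of PP2A-like phosphatases (0.755-fold). DESeq2 called none of these named lower members (adjusted p from 0.0712 to 0.443). When 1 library was left out, Inpp5d and Hs6st1 stayed called every time. Nemp2 was lost without Sample_2268_KO, Sample_2271_KO or Sample_2277_WT (adjusted p from 0.0739 to 0.117), Csrp1 without Sample_2268_KO, Sample_2270_KO or Sample_2277_WT (0.0538 to 0.0599), Arl4c without Sample_2271_KO (0.0755), and Mgat5 without Sample_2271_KO or Sample_2275_WT (0.0659 to 0.0793). Map4k4 was lost without Sample_2272_KO or Sample_2275_WT (0.0754 to 0.099), Vmn1r1 without Sample_2268_KO, Sample_2271_KO or Sample_2275_WT (0.0933 to 0.174), Aox2 without Sample_2269_KO, Sample_2271_KO, Sample_2272_KO, Sample_2274_WT or Sample_2275_WT (0.0607 to 0.196), and Tiprl without Sample_2269_KO, Sample_2270_KO, Sample_2271_KO, Sample_2272_KO, Sample_2274_WT or Sample_2275_WT (0.053 to 0.197). Thinning ended the calls of Arl4c, Mgat5, Map4k4, Csrp1, Aox2 and Tiprl (adjusted p from 0.178 to 0.83). The Hs6st1, Nemp2 and Vmn1r1 peaks had too few counts to be tested after thinning. Merged libraries ended the calls of Map4k4, Aox2 and Tiprl (0.0931 to 0.106). Leaving out the 3 shallowest libraries ended those of Inpp5d, Csrp1, Vmn1r1 and Tiprl (0.0692 to 0.176), and limma-voom those of Aox2 and Tiprl (0.0576 to 0.0944).

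The member with the most counts did not pass the test. It covers the start site of Dnpep, an aminopeptidase, and had 318, 144, 313, 255 and 210 CPM in KO, against 310, 267, 229, 385 and 330 CPM in WT. The groups overlapped widely (0.811-fold, edgeR adjusted p = 0.167).

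Counts of all members in a window were then summed, to ask whether stretches of the chromosome moved as a whole. The 137 windows that hold a member were numbered by the Mb at which they start (window 62 runs from 62000001 to 63000000) and held 1 to 69 members, with a median of 10. Of the 137, 7 were called higher in KO, where 4.16% of the 1899 tested windows of the genome were, and 0 were called lower, where 0.79% were. The window sums were tested with edgeR as the peaks were. At an unadjusted p under 0.05, 21 windows were higher and 4 lower, and DESeq2 also called 0 lower. The window log2 fold change ran between -0.37 and 0.69 with a median of 0.015, and 75 windows lay above 0 and 62 below. In 3 windows all KO libraries were above all WT libraries, where 3.9% of the genome's windows were so, and in 0 all were below, where 1.58% were.

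Window 62 had the highest log2 fold change. It holds 3 members in a stretch whose nearest annotated gene is 4930487H11Rik. The window summed to 60.79, 59.45, 78.34, 81.35 and 75.85 CPM in KO, against 38.03, 47.47, 47.01, 41.47 and 46.61 CPM in WT. All KO libraries were above all WT libraries, a 1.61-fold rise (0.69 ± 0.11 SE on the log2 scale, edgeR adjusted p = 7.82e-05). Of its 3 members 2 were called alone, at 1.71-fold (62875680 to 62876061) and 1.89-fold (62876777 to 62877001), and the third was also above 0. Window 69 holds 4 members near Ikzf2, which encodes the Ikaros-family factor Helios, and Spag16, a protein of sperm flagella. It summed to 114.4, 101.2, 95.01, 77.1 and 92.82 CPM in KO, against 65.19, 62.92, 62.68, 80.79 and 68.23 CPM in WT. A single KO library lay below the highest WT library (1.39-fold, edgeR adjusted p = 0.00369). All 4 members were above 0. The 2 called alone were a peak upstream of the start site of Ikzf2 (1.33-fold, adjusted p = 0.023) and an intergenic peak annotated to Spag16 (1.76-fold, adjusted p = 0.0332). The Ikzf2 call ended without Sample_2268_KO, Sample_2270_KO, Sample_2272_KO, Sample_2273_WT, Sample_2274_WT, Sample_2275_WT or Sample_2277_WT (adjusted p from 0.0522 to 0.187), and the Spag16 call without Sample_2268_KO, Sample_2272_KO, Sample_2275_WT, Sample_2276_WT or Sample_2277_WT (0.0593 to 0.173). No removal of 1 library ended the call of window 62 or window 69. The Ikzf2 and Spag16 calls also ended with DESeq2 (0.254 and 0.27) and with merged libraries (0.107 and 0.0576). Without the 3 shallowest libraries those of Ikzf2 (0.205) and window 69 (0.0551) ended.

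The other 5 called windows held more peaks and had smaller changes. Window 138, which holds Ptprc and 38 members, summed to 824 ± 39.5 CPM in KO libraries and 732.5 ± 27.7 CPM in WT libraries, a 1.12-fold rise (edgeR adjusted p = 0.00683). Besides the Ptprc peak, 3 intergenic peaks annotated to Atp6v1g3, a subunit of the vacuolar proton pump, and 1 near 4930596I21Rik were called. The Atp6v1g3 peaks rose 1.32-, 1.54- and 1.5-fold and that near 4930596I21Rik 2.06-fold. The weakest of these, at 138299560, was lost without Sample_2268_KO, Sample_2271_KO, Sample_2273_WT, Sample_2274_WT, Sample_2276_WT or Sample_2277_WT (adjusted p from 0.0516 to 0.191), and that near 4930596I21Rik without Sample_2271_KO, Sample_2272_KO, Sample_2275_WT or Sample_2277_WT (0.0912 to 0.113). Window 53 lies around Stk17b, a kinase known to restrain T cell receptor signals, and Mir7681, a microRNA gene. Its 27 members summed to 694.2, 687.4, 683.4, 702.9 and 659.7 CPM in KO, against 606.3, 635.8, 628.9, 577 and 646.5 CPM in WT. The groups did not overlap although the rise was 1.1-fold (edgeR adjusted p = 0.0141). Peaks called alone there were 1 annotated to Stk17b (1.51-fold) and 2 to Mir7681 (1.45- and 1.81-fold), of which the last lies in intron 17 of Hecw2 by RefSeq name. The last was lost without Sample_2268_KO, Sample_2272_KO, Sample_2275_WT, Sample_2276_WT or Sample_2277_WT (adjusted p from 0.0621 to 0.0994). Without Sample_2271_KO the calls of window 138 (adjusted p = 0.0755) and window 53 (0.104) ended. With merged libraries the calls of window 138 (0.252), window 53 (0.416) and the peak at 138299560 (0.154) ended. DESeq2 ended the calls of window 53, the Stk17b peak, the second Mir7681 peak, the peak near 4930596I21Rik and the Atp6v1g3 peaks at 138299560 and 138303290 (adjusted p from 0.0582 to 0.38). Thinning ended those of window 53, the Stk17b peak, the first Mir7681 peak and the same Atp6v1g3 peaks (0.0541 to 0.24). The second Mir7681 peak and that near 4930596I21Rik had too few counts to be tested after thinning.

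Window 173 holds Aim2, a sensor of cytosolic DNA, and genes of the interferon-inducible p200 family. It summed to 210 ± 20.9 CPM in KO libraries and 178.5 ± 8.83 CPM in WT libraries (1.17-fold, edgeR adjusted p = 0.0355). Of its 11 members 10 were above 0, and 1, in an intron of Aim2, was called alone with 25.2 ± 6.57 CPM in KO libraries and 14.6 ± 2.42 CPM in WT libraries (1.59-fold, edgeR adjusted p = 0.00786). That call ended with DESeq2 (0.0955), without the 3 shallowest libraries (0.147) and after thinning (0.198). Window 30 holds Phf3, a regulator of transcribing RNA polymerase II, and the phosphatase gene Ptp4a1, and summed to 287.3 ± 17.6 CPM in KO libraries and 252.5 ± 17.2 CPM in WT libraries (1.15-fold, edgeR adjusted p = 0.0358). Its 1 peak called alone, at the Phf3 promoter, had 30.4, 33.4, 20, 37.2 and 40.4 CPM in KO, against 16.3, 16, 20.9, 17.9 and 18.2 CPM in WT (1.92-fold, edgeR adjusted p = 2.05e-06). The lowest KO library, with 20 CPM, lay just below the highest WT library. Window 60 holds 44 members near Cd28, Ctla4 and Icos, the receptors that tune T cell activation, and summed to 1051 ± 40.2 CPM in KO libraries and 976.3 ± 44.5 CPM in WT libraries (1.08-fold, edgeR adjusted p = 0.0496). These 3 calls were close to the threshold. Window 173 was lost without any of Sample_2270_KO, Sample_2271_KO, Sample_2272_KO, Sample_2273_WT, Sample_2275_WT, Sample_2276_WT and Sample_2277_WT (adjusted p from 0.0606 to 0.199), window 30 without any of Sample_2268_KO, Sample_2270_KO, Sample_2271_KO, Sample_2272_KO, Sample_2273_WT, Sample_2274_WT and Sample_2275_WT (0.0578 to 0.146), and window 60 in every such fit but that without Sample_2274_WT (0.0505 to 0.227). With merged libraries the adjusted p was 0.416 for window 173, 0.481 for window 30 and 0.592 for window 60, and with DESeq2 it was 0.111, 0.106 and 0.151 in that order.

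**Figure D3:**
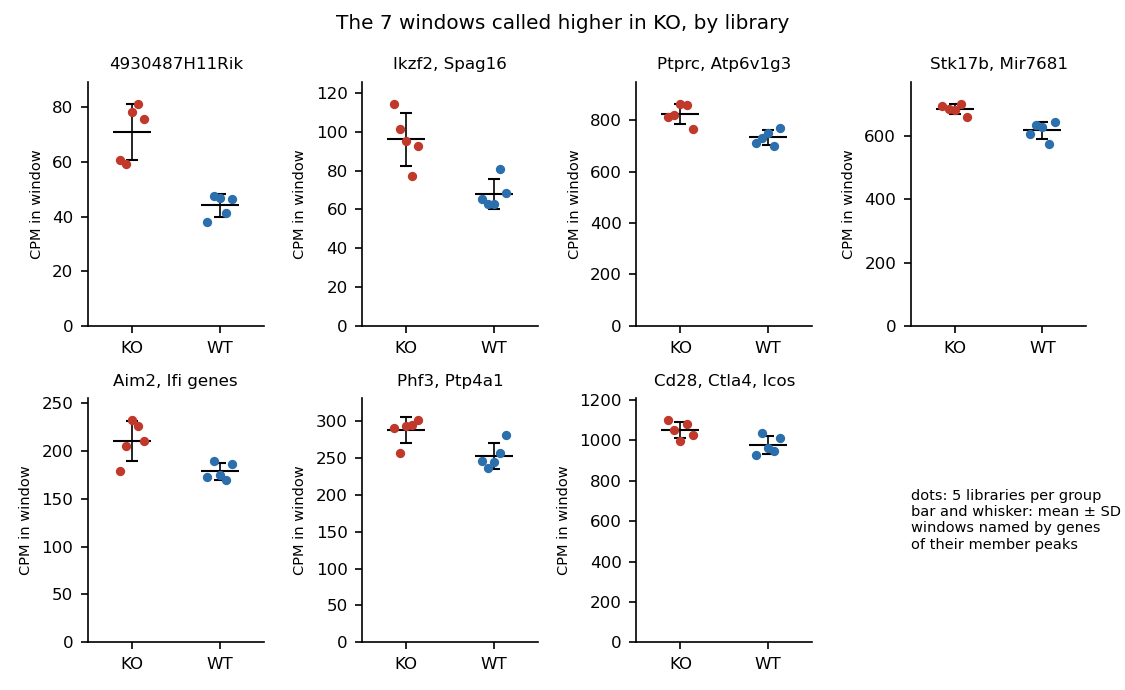
CPM summed over the member peaks of each of the 7 windows called higher in KO, 1 dot per library, with the mean and SD of 5 KO (left) and 5 WT libraries (right); axes start at 0. KO and WT dots are apart in the 4930487H11Rik and Stk17b windows, and overlap in the others.

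Window sums were then recomputed without some of their peaks. With all peaks called alone left out, 0 of the 137 windows were called, and the log2 fold change of the 7 windows became 0.34 (window 62), 0.45 (window 69), 0.17 (window 173), 0.12 (window 30), 0.07 (window 53), 0.04 (window 138) and 0.02 (window 60). Those values were all above 0, but the peaks left out had been picked for a difference, so lower values follow from the way the sums were built. With the peak of most counts left out instead, all 7 stayed called and 13 windows were called in all. Sums of promoter peaks alone gave 0 called windows and sums of peaks outside promoters gave 14 higher and 1 lower. The number of called windows was 1 without the 3 shallowest libraries (window 62) and 2 with libraries within counting noise merged (windows 62 and 69). It was 2 without Sample_2271_KO and 4 without Sample_2270_KO, Sample_2273_WT or Sample_2275_WT. In windows of 0.5 Mb 15 were called higher, and in windows of 2 Mb 4.

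**Figure D4:**
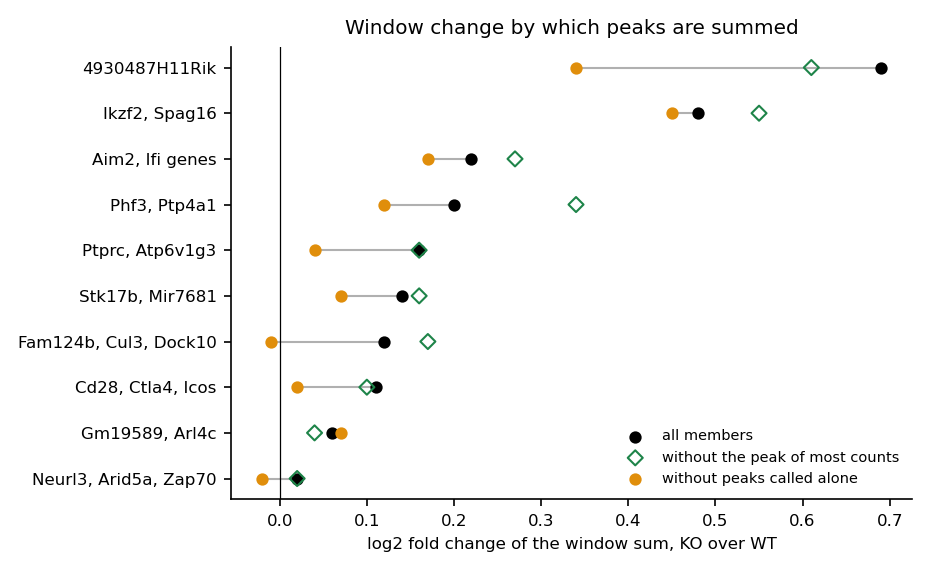
Log2 fold change (KO over WT) of the window sum in the 7 called windows and the 3 further windows with the most called peaks. Black points sum all members, green diamonds leave out the peak of most counts and orange points leave out peaks called alone. Orange points lie at or below the black ones except in the Gm19589 and Arl4c window.

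Windows with many called peaks were not all called in sum. Window 60, whose sum was called higher as given above, had the most, with 6 called peaks, all higher. Besides 3 of Ctla4 (2.44-, 1.93- and 1.52-fold), these lie near Abi2, part of the WAVE complex that drives actin assembly (1.92-fold), Raph1, a protein of lamellipodia (2.42-fold), and Cd28 (1.92-fold). The Cd28 peak had 12.8, 10.4, 8.33, 7.44 and 12 CPM in KO, against 3.26, 4.42, 4.7, 8.58 and 5.4 CPM in WT (edgeR adjusted p = 0.0313). The groups overlapped, and the call ended in 7 of the 10 fits that left out 1 library, those without Sample_2268_KO, Sample_2269_KO, Sample_2272_KO, Sample_2273_WT, Sample_2274_WT, Sample_2275_WT or Sample_2277_WT (adjusted p from 0.0519 to 0.164). It also ended with DESeq2 (0.251), with merged libraries (0.0651) and without the 3 shallowest libraries (0.121). Of the Ctla4 peaks the 1.93-fold one was lost after thinning (0.0657), and the 1.52-fold one after thinning (0.288) and with DESeq2 (0.068). The Abi2, Raph1 and Cd28 peaks had too few counts to be tested after thinning. Window 36 had 5 higher peaks and 1 lower among 56 tested, but summed to 1580 ± 19.8 CPM in KO libraries and 1559 ± 17.6 CPM in WT libraries (1.01-fold, edgeR adjusted p = 0.731). The lower one was that of Hs6st1.

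The higher peaks of window 36 lie at Neurl3, Arid5a and Zap70. Neurl3 encodes a ubiquitin ligase. The peak over its start site, whose sequence is given above, had 16.8, 14.6, 21.7, 20.2 and 21.5 CPM in KO, against 9.78, 12.7, 15.1, 12.2 and 8.11 CPM in WT (1.61-fold, edgeR adjusted p = 0.0206), and the other, within the gene near its start, rose 1.62-fold (adjusted p = 0.00998). At the start site the lowest KO library lay just below the highest WT library. That call ended without Sample_2271_KO, Sample_2272_KO or Sample_2277_WT (adjusted p from 0.0757 to 0.117) and the other without Sample_2271_KO or Sample_2277_WT (0.0517 to 0.0552). Arid5a encodes a protein with an AT-rich interaction domain that stabilises messenger RNAs. Its intergenic peak had 43.1 ± 6.36 CPM in KO libraries and 29 ± 3.51 CPM in WT libraries (1.53-fold, edgeR adjusted p = 0.000189). Zap70 is the kinase that binds the activated T cell receptor. An intronic peak of Zap70 had 27.7 ± 3.25 CPM in KO libraries and 17.5 ± 1.81 CPM in WT libraries (1.58-fold, edgeR adjusted p = 0.0025). A neighbouring peak in the 5′ UTR rose 1.35-fold at adjusted p = 0.0479 and was lost in 7 of the 10 fits without 1 library, those without Sample_2268_KO, Sample_2269_KO, Sample_2271_KO, Sample_2272_KO, Sample_2273_WT, Sample_2275_WT or Sample_2276_WT (0.0532 to 0.235). DESeq2 ended the calls of both Neurl3 and both Zap70 peaks (adjusted p from 0.0769 to 0.355). Thinning ended those of the Neurl3 peak within the gene, the Arid5a peak and the intronic Zap70 peak (0.245 to 0.403). The Neurl3 peak over the start site had too few counts to be tested after thinning. With merged libraries the Neurl3 start site (0.0536) and the 5′ UTR peak of Zap70 (0.108) were lost.

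Window 80 had 4 higher peaks and summed to 676 ± 44.1 CPM in KO libraries and 623.4 ± 18.8 CPM in WT libraries (1.08-fold, edgeR adjusted p = 0.0954). It was called without Sample_2272_KO (adjusted p = 0.0107). The peak with the smallest adjusted p there is annotated to 1700016L21Rik and had 28, 34.4, 36.7, 35.1 and 28.4 CPM in KO, against 7.61, 11.6, 11, 8.58 and 8.78 CPM in WT (3.22-fold, edgeR adjusted p = 3.11e-12). Its groups did not overlap, nor did those of the Dock10 peak in the same window. The others lie near Cul3, the scaffold of a family of ubiquitin ligases (1.88-fold), and over the start site of Fam124b (1.51-fold, adjusted p = 0.0295). The Fam124b peak had 26.4, 25, 10, 20.7 and 26.4 CPM in KO, against 14.1, 14.4, 15.7, 18.6 and 13.5 CPM in WT. Sample_2270_KO was the lowest of the 10, and the call ended without Sample_2268_KO, Sample_2269_KO, Sample_2272_KO, Sample_2273_WT, Sample_2274_WT, Sample_2275_WT or Sample_2277_WT (adjusted p from 0.0517 to 0.18). Window 88 held peaks called in both directions. Near Gm19589 a pair at 88577943 and 88578175 rose 1.7- and 1.73-fold, while peaks at 88622472 (0.673-fold) and, annotated to Arl4c, at 88644421 (0.619-fold) fell. The window sum was 914.5 ± 23.4 CPM in KO libraries and 874.9 ± 18.3 CPM in WT libraries (1.04-fold, edgeR adjusted p = 0.252). The call at 88577943 ended without Sample_2270_KO, Sample_2271_KO, Sample_2274_WT or Sample_2275_WT (adjusted p from 0.0506 to 0.0836), and that of Arl4c without Sample_2271_KO (0.0755). DESeq2 ended the calls of Fam124b, Arl4c and the peaks at 88577943 and 88622472 (adjusted p from 0.138 to 0.352), and thinning those of Fam124b, Cul3, Arl4c and the peak at 88622472 (0.178 to 0.389). The peak at 88577943 had too few counts to be tested after thinning. With merged libraries Fam124b (0.0558) and the peak at 88577943 (0.0508) were lost.

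Called peaks were found in 50 of the 137 windows, 2 or more in 27 and 3 or more in 15, and 8 windows held both a higher and a lower peak. The number of called peaks in a window followed the number of its members (Pearson r = 0.58 over 137 windows, which differ in gene density). The 44 windows with 20 or more members held 74 of the 103 called peaks, 1443 of the 2116 members and 65.7% of the members' counts. By sections of 50 Mb, 4.24% of tested members were called higher in the first, 5.69% in the second, 4.17% in the third and 3.06% in the fourth, and 0.909%, 0.769%, 0.556% and 0.532% lower. The longest stretch without a called peak, in Mb, was the 18 windows between windows 106 and 125, which hold only 31 members. Stretches of 9 windows between windows 88 and 98 and between windows 183 and 193 also had none, and hold more members (94 and 101).

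Neighbouring members were compared by distance. Over 628 pairs of members less than 2 kb apart the Pearson correlation of log2 fold changes was 0.17. It was 0.03 at 2 to 10 kb and at 10 to 50 kb, and 0.02 at 50 to 200 kb and at 200 kb to 1 Mb. Pairs share members and libraries, and no test was run on these values. Around the higher members, 14 of 56 partners within 2 kb were themselves called higher (25%), against 8.42% at 2 to 10 kb, 7.38% at 10 to 50 kb, 5.31% at 50 to 200 kb and 5.63% at 200 kb to 1 Mb. Those 14 form 7 pairs, among them pairs at Neurl3, Zap70, 4930487H11Rik, Gm19589, Atp6v1g3 and 1700025G04Rik. None of the 6 partners within 2 kb of a lower member was called higher. On the other chromosomes the correlation was 0.14 within 2 kb and 0.07 at 2 to 10 kb, and 62 of 484 partners within 2 kb of a higher peak were called higher (12.8%), against 5.7% at 2 to 10 kb. The difference between the chromosomes was not tested.

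Called members are described next by annotation class, with no test between classes. Of the higher ones 24.7% were annotated as promoter, 31.5% as intron and 41.6% as distal intergenic, where 42.6%, 25% and 25.5% of all tested members were. The share called higher was 2.47% of 891 promoter peaks, 5.35% of 523 intronic and 6.93% of 534 distal intergenic peaks on chromosome 1. Over the other chromosomes, at the same minimum count, it was 1.19%, 4.98% and 4.25% in that order. These differences between the chromosomes were not tested. Called lower were 4 promoter, 5 intronic and 5 distal intergenic peaks. The median distance to the nearest start site was 16213 bases in higher, 16705.5 bases in lower and 7160.5 bases in all tested members.

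**Figure D5:**
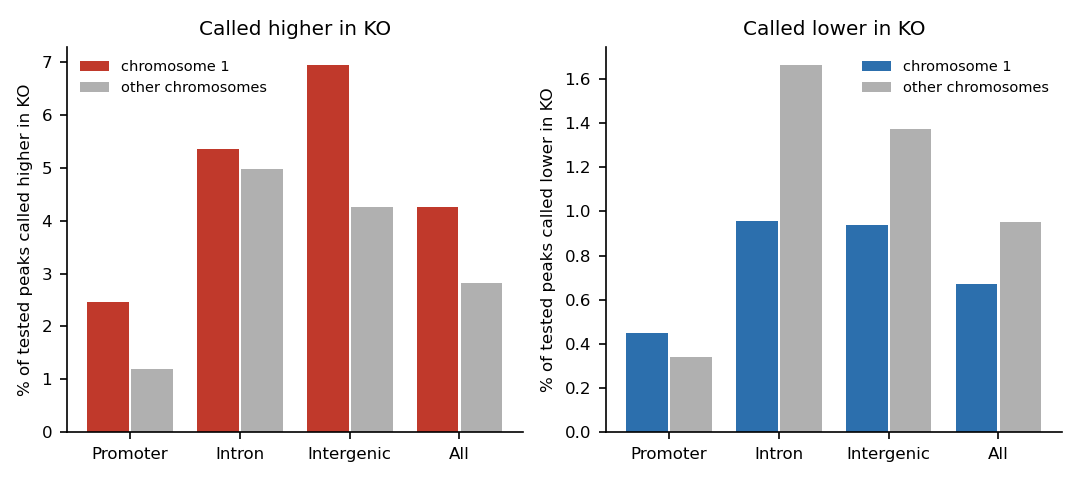
Percent of tested peaks called higher (left) and lower (right) in KO by annotation class, coloured bars for chromosome 1 and grey bars for the other chromosomes. All peaks drawn have a summed count of at least 100. For higher peaks the chromosome 1 bar is above the grey bar in the 3 classes drawn (6.93% and 4.25% in intergenic peaks). For lower peaks it is above in promoters and below in introns and intergenic peaks.

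Gene families of the chromosome were described by counts over their tested members, beside the 2.94% of all tested peaks called higher and 0.911% called lower. In the CD28 family (Cd28, Ctla4, Icos and Pdcd1) 5 of 30 were higher and 0 lower, with a median log2 fold change of 0.06. Among the SLAM receptors 3 of 23 were higher, with a median of 0.11. Slamf6 is one of them, with 22.4, 22.9, 25, 25 and 25.4 CPM in KO, against 6.52, 15.5, 9.92, 9.29 and 14.2 CPM in WT (2.1-fold, edgeR adjusted p = 1.22e-05). Its KO libraries were all above its WT libraries. In the IL-1 receptor cluster 2 of 10 were higher, both intronic. Il1r1, the receptor of IL-1, had 12.4 ± 3.09 CPM in KO libraries and 5.36 ± 2.02 CPM in WT libraries (2.28-fold, edgeR adjusted p = 0.00202), and Il18r1, the receptor of IL-18, had 26.5 ± 2.91 CPM in KO libraries and 15 ± 3.08 CPM in WT libraries (1.77-fold, edgeR adjusted p = 0.000271). The Il18r1 call ended after thinning (0.587), and the Il1r1 and Slamf6 peaks had too few counts to be tested after it. Among chemokine, chemokine receptor and selectin genes 4 of 31 were higher, 1 of them at Cxcr4.

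The RGS genes encode proteins that switch off G protein signals, and 3 of their 13 members were higher, with 10 of 13 above 0 and a median of 0.2. An intergenic peak annotated to Rgs1 had 20.8, 25, 18.3, 19.1 and 26.9 CPM in KO, against 10.9, 12.7, 12, 15.7 and 15.5 CPM in WT (1.68-fold, edgeR adjusted p = 0.00343). The groups did not overlap, and the call ended without Sample_2272_KO (0.0673). A second Rgs1 peak rose 1.53-fold and was lost without Sample_2272_KO, Sample_2274_WT or Sample_2275_WT (adjusted p from 0.0818 to 0.087). In the p200 cluster 1 of 11 was higher, that of Aim2, and 10 of 11 were above 0 (median 0.19). T cell receptor signalling genes had 3 higher (1 at Ptprc and 2 at Zap70) and 1 lower (Inpp5d) of 55, with a median of 0. TNF ligands and receptors had 2 of 24 higher, Tnfsf18 and the death ligand gene Fasl (1.66-fold, adjusted p = 0.0212, ended without Sample_2271_KO, Sample_2273_WT, Sample_2275_WT or Sample_2277_WT at 0.0529 to 0.139). Apoptosis genes had 2 of 47 higher, at Fasl and at Cflar, the inhibitor of caspase-8 activation (1.54-fold, adjusted p = 0.00928). DESeq2 ended the calls of both Rgs1 peaks, Fasl and Cflar (adjusted p from 0.0893 to 0.264), and thinning those of both Rgs1 peaks and Cflar (0.106 to 0.45). The Fasl peak had too few counts to be tested after thinning.

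Other families had few called members. Transcription and chromatin regulators had 3 of 95 higher (Arid5a, Ino80d and Ikzf2), or 3.16%, with a median of -0.02. Ino80d, a subunit of the INO80 remodeller, rose 1.65-fold (adjusted p = 0.0163), which ended without Sample_2272_KO, Sample_2274_WT or Sample_2275_WT (0.0652 to 0.18). Metabolism and transport genes had 1 of 34, at the dehydrogenase gene Idh1 (1.84-fold, adjusted p = 0.0479). That call ended in 8 of the 10 fits without 1 library, all but those without Sample_2272_KO or Sample_2276_WT (0.0629 to 0.283). DESeq2 ended the calls of Ino80d (0.236) and Idh1 (0.281), and merged libraries that of Idh1 (0.0907). No member was called in either direction for the IL-10 cluster (13), the Fc receptors (7), the SP100 family (10) or the complement regulators (7). Over all 16 lists 28 of 400 members were higher (7%) and 1 lower, with a median of 0.02.

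The share of counts on the chromosome was compared last. Chromosome 1 members took 5.609 ± 0.056% of nuclear in-peak counts in KO and 5.56 ± 0.027% in WT (SD, n = 5), a difference of 0.049 percentage points (two-sided exact permutation test, p = 0.119; the smallest p this design allows is 0.00794). By library the share was 5.653, 5.523, 5.639, 5.65 and 5.581% in KO, against 5.532, 5.594, 5.533, 5.565 and 5.575% in WT. The lowest of all 10 was Sample_2269_KO, and without it the difference was 0.071 points (exact permutation p = 0.0238). Over the removals of each library in turn, the exact permutation p ran from 0.0238 to 0.238.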

How the data were processed

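Chromatin accessibility was measured by ATAC-seq, sequenced as single reads of 75 bp per the labels. The authors deposited raw counts of reads over a shared set of 61581 peaks in 10 libraries, and another table with each peak's position, class and nearest gene (10 mitochondrial peaks, with 0.78% to 1.97% of a library's counts, have none). The submitters' processing notes list the build mm10 and, with no role given, ChIPseeker 1.18.0, MACS2 2.1.2, Bowtie2 2.3.5, DESeq2 1.22.2, Picard and Trimmomatic 0.36, among others. Shifting of reads to the cut site, duplicate handling and pooling of replicates for peak calling are not given in the sources used here. Of the 2116 members, 225 have no deposited symbol and carry the RefSeq name of their gene number (GRCm38.p6). The nearest gene need not be the gene a peak acts on.

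Counts were tested here with edgeR 4.0.16 (R 4.3.3), by the quasi-likelihood F-test with TMM scaling (filterByExpr by group, no covariate), over all 34910 tested peaks, with the totals of tested peaks. Member counts were summed in 1 Mb windows of the whole genome by peak midpoint and fitted with the same totals and TMM factors (1899 windows). CPM are counts scaled to a common TMM-adjusted total and are given as mean ± SD over 5 libraries. Folds are edgeR's fitted values, which a small prior count pulls towards 1 in low peaks. They can differ in either direction from the ratio of the mean CPM. The SE is derived from the F statistic and is approximate. Groups are called separated where the lowest CPM of 1 group is above the highest of the other. The share of counts was compared over all 252 assignments of libraries. DESeq2 1.42.0, limma-voom (limma 3.58.1), other scalings, filters and minima, other windows, thinning, merging and leaving out libraries were tried as alternatives. Library totals without the 10 mitochondrial peaks were added after seeing the data. Libraries were taken as within counting noise when a chi-square test over peaks with at least 20 counts in the pair found no difference.

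Named items follow a rule. It takes up to 12 called members per direction by adjusted p, 1 per symbol and without Gm, LOC or Rik names, and up to 8 called windows per direction with their called peaks. It adds the 5 windows with the most called peaks, the member with the most counts and up to 2 called peaks per gene list. Genes at called start sites and called pairs within 2 kb were named after their values were seen. Members, lists and rules were chosen with earlier results of these data known. Some items the rule takes are not reported here. Reference sequences are RefSeq's. No sequence of peaks away from promoters was used here.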

Additional observations from a re-analysis of the deposited data

Results flagged for a closer look

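In 7 of 144 groups of 5 libraries behind the named peaks and windows, 1 library lay far from the other 4, where chance gives about 1 group in 20. The intronic Rev1 peak had 14.1 CPM in Sample_2273_WT, against 10.4 to 11.4 CPM in the other WT libraries. The Ino80d peak had 17.6 CPM in Sample_2277_WT (9.78 to 10.7 CPM in the others). The Arl4c peak had 15.7 CPM in Sample_2276_WT (25.7 to 28.7 CPM in the others). The Rgs1 peak at 144273015 had such a value in both groups, 16.7 CPM in Sample_2270_KO (23.9 to 26.4 CPM in the other KO libraries) and 23.6 CPM in Sample_2277_WT (13.2 to 15.7 CPM in the other WT libraries). The Aim2 peak had 36.7 CPM in Sample_2270_KO, the shallowest (20 to 23.9 CPM in the others). Window 30 summed to 257 CPM in Sample_2269_KO (290 to 301 CPM in the others).

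Among the chromosome 1 peaks left out for a summed count under 100, 2 were called. An intronic peak assigned to Nabp1 (51525677 to 51525871, summed count 95) had 8.5 ± 3.21 CPM in KO libraries and 4.37 ± 2.22 CPM in WT libraries, a log2 fold change of 1.06 (edgeR adjusted p = 0.0277). An intronic peak of Icos (60986279 to 60986454, summed count 94) had 9.3 ± 3.06 CPM in KO libraries and 4.06 ± 1.96 CPM in WT libraries, a log2 fold change of 1.11 (edgeR adjusted p = 0.019). KO and WT libraries overlapped in both.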

How the results depend on the processing

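No paired analysis was possible because the labels number the libraries Sample_2268_KO to Sample_2277_WT and the groups share no number. Peaks called higher (89) were 44 with DESeq2 and 19 after thinning to the smallest total, and 65 to 86 when 1 library was left out. Of the 89, 54 have a summed count of at least 200, which is a part of the same calls and not a new fit. Peaks called lower (14) were 1 with DESeq2, 1 after thinning and 11 to 18 when 1 library was left out. No called peak changed sign in any alternative. With merged libraries 73 of the 89 and 11 of the 14 stayed called. Windows called higher (7) were 3 with DESeq2, 4 with no filter on low counts, 3 with a summed count of at least 200, 1 without the 3 libraries with the lowest totals, 4 after thinning and 2 with merged libraries. They were 15 in 0.5 Mb windows, 4 in 2 Mb windows, 12 in windows moved by 0.5 Mb, 14 outside promoters, 0 for promoter peaks, 13 without the strongest peak and 0 without peaks called alone, and 2 to 7 when 1 library was left out (2 without Sample_2271_KO, and 4 without Sample_2270_KO, Sample_2273_WT or Sample_2275_WT). Windows called lower (0) were 1 outside promoters and 0 to 0 when 1 library was left out. The difference in share (0.049 points) was 0.07 with a summed count of at least 50 (exact permutation p = 0.0238) and 0.039 to 0.071 when 1 library was left out. Window 36 reversed to a log2 fold change of 0 after thinning, -0.04 for promoter peaks and -0.02 without peaks called alone, and window 80 to -0.07 for promoter peaks and -0.01 without peaks called alone. Peaks called alone were left out by their own values, and fewer peaks enter each of these sums. For the others the cause was not tested. Of the 61 named peaks 37 stayed called under every removal of 1 library, 27 with DESeq2 and 14 after thinning. Some of the named peaks, such as those of Hs6st1 and Slamf6, had too few counts to be tested after thinning. Depth limits single members, which had a median of 10 counts in the shallowest library.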
